A study of Mus musculus with 6 samples.

Results

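Mitf, Sox10, Pax3, Mc1r, Ednrb, Tfap2a, Lef1 and Tbx2, 8 of the 55335 genes counted, were followed as regulators of the melanocyte lineage in mouse melanoma cells with and without the interferon-γ receptor. They were taken by name, through the Ensembl identifiers that GENCODE M21 gives those symbols. Earlier results of these data were known when the genes were chosen. The cells were B16-BL6, a pigmented mouse melanoma line, and RNA was sequenced from 3 scrambled control libraries (replicates 1 to 3) and 3 IFNγR1KO libraries (replicates 10 to 12). Both groups had been transduced with a lentiviral vector carrying Cas9 and a guide RNA, selected in puromycin and grown from single cells; the control guide was directed at GFP and the knockout guides at the first exon of Ifngr1. The labels give the genotypes as WT and IFNyR1KO. No interferon-γ was named as added to the sequenced cultures. Which guide and which clone were sequenced is not given in the sources used here, and the libraries of a group were cultures seeded side by side, so the p-values below measure the spread between cultures, and an effect of the knockout and a difference between clones cannot be told apart.

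The libraries held 9402640 to 10579788 gene counts in the scrambled control and 6698956 to 7409479 in IFNγR1KO cells, so in counts-per-million (CPM, with TMM library sizes) 1 count was worth 0.0966 to 0.109 in the former and 0.136 to 0.142 in the latter. Ifngr1, the targeted gene, was at 16.7, 14.3 and 16.6 CPM in the control libraries and 11.4, 11.5 and 11.5 CPM in the IFNγR1KO libraries (log2 fold change -0.47 ± 0.16 (SE), adjusted p = 0.0729). Its transcript was thus still counted in each knockout library, and gene counts do not show a small change in the coding sequence. The melanocyte label was checked against 7 pigment cell genes (Tyr, Tyrp1, Dct, Pmel, Mlana, Slc45a2 and Gpr143), which summed to 32310 to 35300 CPM in control and 28100 to 33170 CPM in IFNγR1KO cells. Each of the 7 was detected, each pointed lower in IFNγR1KO cells (log2 fold change -0.45 to -0.033), and 0 of the 7 passed the test described below.

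The libraries of a group were not equally alike. By a chi-square of their counts per degree of freedom, IFNγR1KO 10 and 11 were close (2.62), and IFNγR1KO 12 stood apart from them (18.5 and 15.02). By this measure scrambled control 3 was no nearer to controls 1 and 2 (22.7 and 20.4) than to IFNγR1KO 12 (19.6). The measure grows with the size of the libraries, and IFNγR1KO 12 held the fewest gene counts (6698956). The Pearson correlation of scrambled control 3 over tested genes was higher with the controls (0.983 and 0.985) than with IFNγR1KO 12 (0.971). Without IFNγR1KO 12, calls over all genes went up to 1372 higher and 1452 lower, and without IFNγR1KO 10 they went down to 570 and 525. Without IFNγR1KO 12 the log2 fold changes of the regulators were 0.33 for Mitf, 0.31 for Pax3, -0.33 for Sox10, -0.39 for Mc1r, -0.39 for Tbx2 and -0.17 for Tfap2a, and without scrambled control 3 they were 0.45, 0.41, -0.084, -0.30, -0.23 and -0.12 in the same order. None of the 6 was called in either fit (edgeR adjusted p 0.0741 to 0.837).

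Melanocytes arise from the neural crest. Pax3 and Sox10 together switch on Mitf, the basic helix-loop-helix leucine zipper factor that drives pigment enzymes, survival and cell cycle genes in these cells. Signals reach Mitf from outside: α-MSH acts on the receptor Mc1r to raise cyclic AMP, endothelin 3 acts on the receptor Ednrb in migrating melanoblasts, KIT ligand acts on Kit, and Wnt signals act through β-catenin and its DNA-binding partner Lef1. Tfap2a works beside Mitf at pigment genes, and Tbx2 is a T-box repressor that holds back senescence in melanoma cells.

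Levels of different genes were compared as CPM per kilobase of exon, where the length is that of all annotated exons of a gene together (6196 bases for Mitf, 6187 for Pax3, 3638 for Mc1r and 3626 for Tbx2). On this scale 6 of the 8 genes were expressed and Ednrb and Lef1 had no count in any library. Sox10 stood highest, at 139 ± 20.4 (SD, n = 3) in control and 125 ± 25.3 in IFNγR1KO cells, followed in control cells by Mc1r (43.7), Mitf (33.3), Tbx2 (26.0), Pax3 (20.2) and Tfap2a (6.83). This order held in each of the 3 control libraries. Of its neighbours, Mitf (28.0 to 36.8) and Tbx2 (23.4 to 28.8) overlapped in range, and the other pairs of neighbours did not. In each of the 3 IFNγR1KO libraries the order was Sox10, Mitf, Mc1r, Pax3, Tbx2, Tfap2a, with no overlap between neighbours. On this scale Mitf stood above Mc1r and Pax3 above Tbx2 in IFNγR1KO cells, and both pairs stood the other way round in control cells. The switch depends on the lengths used: in CPM, Mitf was above Mc1r and Pax3 above Tbx2 in each control library too, and for Mitf, with 8 transcripts, the length of the forms expressed was not measured.

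**Figure D1:**
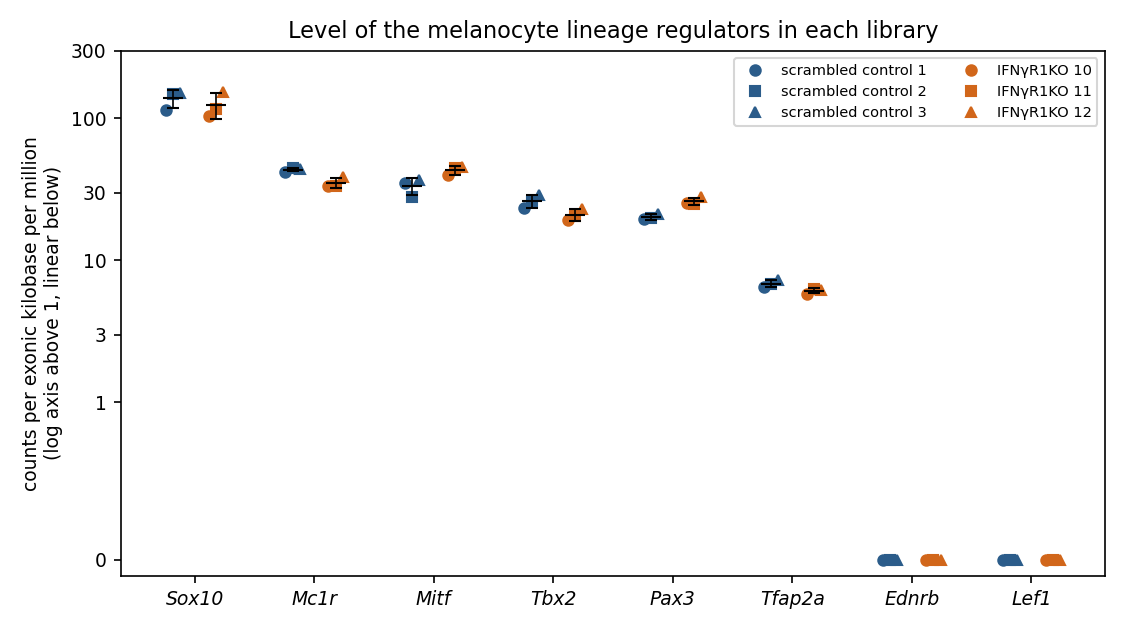
Level of each of the 8 genes in CPM per kilobase of exon (vertical axis, log above 1 and linear below), with 1 point per library and a bar for the group mean with its SD, for scrambled control and IFNγR1KO cells. Sox10 sits highest in both groups, Ednrb and Lef1 lie at 0, and Mitf lies between 28.0 and 36.8 in control and between 39.6 and 45.3 in IFNγR1KO libraries.

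Mitf (ENSMUSG00000035158.15) lies on chromosome 6, from 97807052 to 98021349 of GRCm38 on the plus strand. Its 8 annotated transcripts begin at 7 different sites spread over 184869 bases, and the counts per gene add these forms together. The start used by the melanocyte form has in front of it elements by which Wnt and cyclic AMP signals are known to act. The 250 bases before it are therefore shown here from RefSeq (GRCm38.p6, chr6:97991533-97991782, plus strand, with transcription starting at 97991783). No exon of GENCODE M21 lies in them. The capitals mark CTTTGAT, a Lef1/Tcf site, 205 to 199 bases before the start, and TGACGTCA, the cyclic AMP response element, 153 to 146 bases before it.
Mitf promoter: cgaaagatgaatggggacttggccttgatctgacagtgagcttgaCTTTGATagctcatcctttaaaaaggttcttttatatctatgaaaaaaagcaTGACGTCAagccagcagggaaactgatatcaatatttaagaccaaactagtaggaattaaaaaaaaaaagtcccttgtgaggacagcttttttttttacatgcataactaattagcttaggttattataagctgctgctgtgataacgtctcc
Of 32851 promoter windows of this length, 3.21% held CTTTGAT and 1.55% held TGACGTCA on either strand. A match in letters is a description and was not tested for binding.

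The Mitf counts gave 217, 174 and 228 CPM in the control libraries and 246, 275 and 281 CPM in the IFNγR1KO libraries. All 3 IFNγR1KO libraries stood above all 3 control libraries, and the second control library was the lowest. The mean was 206 ± 28.7 CPM (SD, n = 3) in control and 267 ± 18.9 CPM in IFNγR1KO cells, which is 129.6% of control. The log2 fold change was 0.37 ± 0.15 (SE, 95% interval 0.056 to 0.69), and it did not pass the test across all genes (edgeR quasi-likelihood, adjusted p = 0.109). The interval, which is not adjusted for the number of genes, spans folds from 1.04 to 1.62.

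Pax3 (ENSMUSG00000004872.15, chromosome 1, 78101267 to 78197134, minus strand) is a paired-box factor that acts at the Mitf promoter. It was at 120.5, 122 and 132 CPM in the control libraries and 156, 155 and 172 CPM in the IFNγR1KO libraries. The groups did not overlap, and the lowest IFNγR1KO library was above the highest control library by more than the range of the controls. Means were 125 ± 6.25 and 161 ± 9.54 CPM (SD, n = 3), and the log2 fold change of 0.37 ± 0.13 (SE, 95% interval 0.088 to 0.64) had an adjusted p of 0.0732 in edgeR. With upper-quartile in place of TMM normalization it was 0.40 with an adjusted p of 0.0473, so the call on Pax3 turned on the scaling.

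Sox10 (ENSMUSG00000033006.10, chromosome 15, 79154908 to 79165240, minus strand), the SRY-box factor that binds with Pax3 upstream of Mitf, was at 353, 457 and 464 CPM in control and 320, 358 and 468 CPM in IFNγR1KO cells. The ranges of the groups overlapped almost whole. Sox10 also varied most within groups: its coefficient of variation was 14.7% in control and 20.2% in IFNγR1KO cells, where counting error alone would give 1.54% and 1.91%. Its log2 fold change was -0.15 ± 0.18 (SE, 95% interval -0.53 to 0.23, adjusted p = 0.626).

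Mc1r (ENSMUSG00000074037.3), the melanocortin receptor of pigment cells, is a gene of 1 annotated exon on chromosome 8, from 123407107 to 123410744 on the plus strand. The 250 bases before its RefSeq start are shown because they hold 2 copies of CATGTG, an E-box form bound by Mitf (GRCm38.p6, chr8:123406832-123407081, plus strand, start at 123407082). The capitals mark these copies, 62 to 57 and 51 to 46 bases before the start, the former read on the other strand as CACATG, and a match to GCCNNNGGC, the Tfap2a motif, 86 to 78 bases before it.
Mc1r promoter: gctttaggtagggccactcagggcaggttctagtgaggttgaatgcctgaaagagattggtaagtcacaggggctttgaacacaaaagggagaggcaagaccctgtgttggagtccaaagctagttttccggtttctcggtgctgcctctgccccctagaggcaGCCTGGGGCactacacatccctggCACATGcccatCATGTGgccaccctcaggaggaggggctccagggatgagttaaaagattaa
CATGTG was held by 12.3% and GCCNNNGGC by 13.7% of the 32851 windows, so these letters are common in promoters.

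Counts of Mc1r gave 153.5, 162 and 161 CPM in the control libraries and 122, 121.5 and 141 CPM in the IFNγR1KO libraries. All 3 IFNγR1KO libraries stood below all 3 control libraries, the reverse of Mitf. Means were 159 ± 4.68 and 128 ± 11.1 CPM (SD, n = 3), with a log2 fold change of -0.31 ± 0.13 (SE, 95% interval -0.59 to -0.026) that did not pass the test (edgeR adjusted p = 0.136). Of its exonic bases, 17.9% lie under Gm38092 on the other strand, whose own log2 fold change was -0.25 (adjusted p = 0.245). Since the strand setting of the counting is not stated, how reads there were assigned is not known.

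Tbx2 (ENSMUSG00000000093.6, chromosome 11, 85832551 to 85841948, plus strand) was at 85.0, 93.5 and 104 CPM in control and 69.8, 74.8 and 84.1 CPM in IFNγR1KO cells. The groups were only just apart, with the highest IFNγR1KO library beside the lowest control library. Its log2 fold change was -0.31 ± 0.14 (SE, 95% interval -0.61 to -0.0077, adjusted p = 0.162). Tfap2a (ENSMUSG00000021359.16, chromosome 13, 40715302 to 40738376, minus strand), the lowest of the expressed genes, was at 31.7, 33.3 and 35.5 CPM in control and 28.6, 31.0 and 30.5 CPM in IFNγR1KO cells. Its groups did not overlap either, yet lay close: the log2 fold change was -0.16 ± 0.14 (SE, 95% interval -0.45 to 0.14, adjusted p = 0.495). Of the exonic bases of Tfap2a, 14.6% lie under genes of the other strand (Gm26688, Gm47061 and Gm47067), which had at most 71 counts in a library.

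Across the 6 tested genes, edgeR called 0 higher and 0 lower at an adjusted p under 0.05, where 15.3% of the 13642 genes tested were called (7.73% higher and 7.62% lower). DESeq2 and limma-voom also called 0 of the 6. At an unadjusted p under 0.05 there were 4 of 6 (Mitf, Pax3, Mc1r and Tbx2), against 28.9% of all genes tested. In 5 of 6, all but Sox10, the libraries of the groups did not overlap, 2 of them higher and 3 lower in IFNγR1KO cells, against 32.6% of all genes tested (16% higher and 16.6% lower). Among the 6180 genes with a mean of at least 30 CPM, 32.2% did not overlap and 15.6% were called. The median log2 fold change of the 6 was -0.16, and that of all genes tested was -0.0015. Each of the 6 intervals stayed within a log2 fold change of 1 in either direction, the size that 5.2% of all genes tested passed together with the adjusted p.

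**Figure D2:**
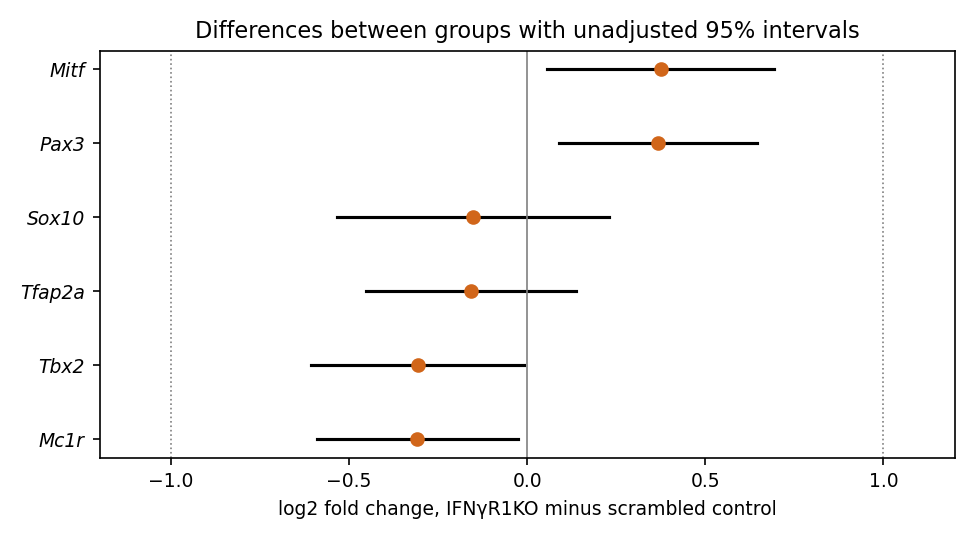
Log2 fold change of IFNγR1KO over scrambled control for the 6 tested genes (horizontal axis, log2 units), with the unadjusted 95% interval from the edgeR fit as a bar and dotted lines at 1 in either direction. Mitf and Pax3 lie above 0 and Mc1r and Tbx2 below it with intervals that do not reach 0, and Sox10 and Tfap2a have intervals that include 0.

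Ednrb (ENSMUSG00000022122.15, chromosome 14, 103814625 to 103844402, minus strand), the endothelin receptor of melanoblasts, had 0 counts in all 6 libraries. A count of 0 allows up to 3 counts, which is 0.290 to 0.326 CPM in control and 0.406 to 0.426 CPM in IFNγR1KO libraries, and for the length of Ednrb at most 0.0999 CPM per kilobase. Lef1 (ENSMUSG00000027985.14, chromosome 3, 131110471 to 131224356, plus strand), the partner of β-catenin, also had 0 counts in all 6, which allows at most 0.0485 CPM per kilobase. These limits cover counting error only. In the RefSeq windows of 250 bases, Ednrb held GCCNNNGGC 195 to 187 bases before its start, and 1 of the 4 Lef1 starts had ACAAAG, a Sox site, 146 to 141 bases before it, letters that 13.7% and 16.5% of all windows held. Of 21899 protein-coding genes, 33.5% were at 0 in all 6 libraries. Lef1 and Ednrb were thus not detectable at this depth in either group, and no fold can be given.

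Since the ratio of 2 genes within a library does not depend on how libraries are scaled, the change of order between groups is given as ratios of the levels per kilobase. The ratio of Mitf to Mc1r was 0.828, 0.629 and 0.834 in the control libraries and 1.18, 1.33 and 1.17 in the IFNγR1KO libraries. The ratio of Pax3 to Tbx2 was 0.831, 0.766 and 0.742 in control and 1.31 and 1.22 in IFNγR1KO 10 and 11, with IFNγR1KO 12 just below them. Both pairs were taken because their order differed between the groups, so that these ratios lie on either side of 1 restates the order, and where 1 falls is set by the exonic lengths; the difference between groups is not.

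The log2 ratio of Mitf to Mc1r differed by 0.69 between groups, from -0.40 ± 0.23 (SD, n = 3) in control to 0.29 ± 0.10 in IFNγR1KO cells. For Pax3 to Mc1r the log2 ratio went from -1.11 ± 0.06 to -0.44 ± 0.04, and for Mitf to Tbx2 from 0.35 ± 0.23 to 1.04 ± 0.07. The log2 ratio of Mitf to Pax3 overlapped between groups (0.71 ± 0.18 and 0.73 ± 0.09), as did that of Mc1r to Tbx2 (0.75 ± 0.12 and 0.75 ± 0.05). Of the 15 pairs among the 6 genes, 7 did not overlap between groups, where 34.8% of all pairs of tested genes did not. For Mitf or Pax3 with Mc1r, Tbx2 or Tfap2a this follows from the single genes, whose groups lay apart in opposite directions. Of the 7, only Sox10 to Pax3 was free to overlap, so the count mostly restates the single genes and cannot be weighed against that share. Each of the 7 joined Mitf or Pax3 to 1 of the other four, and Mitf to Sox10 was the pair of that kind that overlapped. For each of the 7 the exact two-sided permutation p was 0.1, the smallest that 3 against 3 libraries allow, and 0.214 after Benjamini-Hochberg adjustment over the 15, so no pair can pass at this number of libraries. The pairs were looked at after the values of the genes had been seen.

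**Figure D3:**
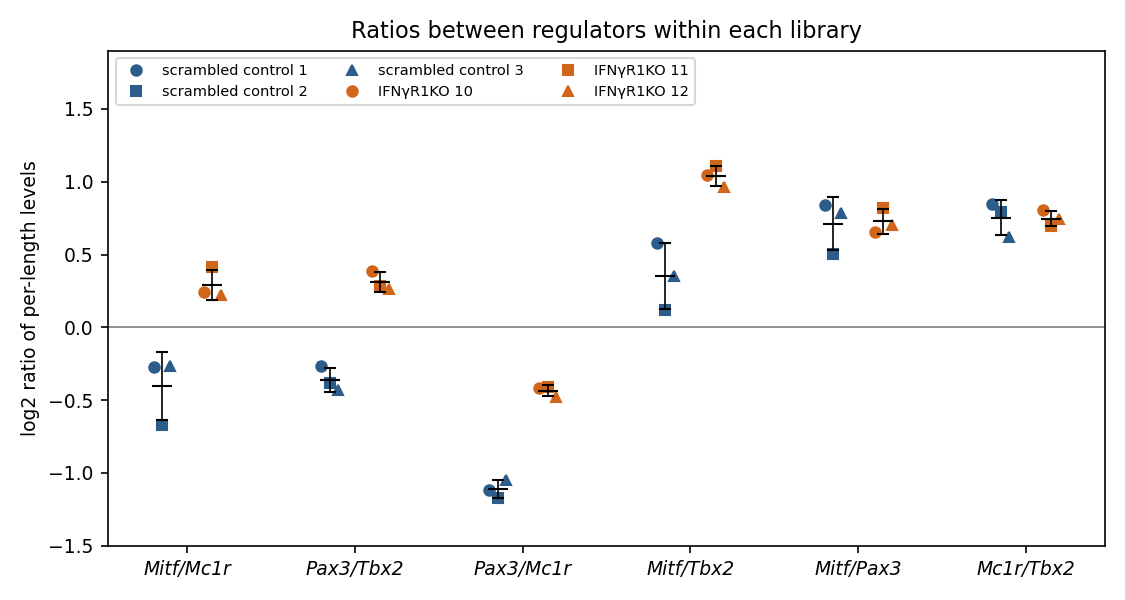
Log2 ratio of levels per exonic kilobase for 6 pairs of the genes within each library, with 1 point per library and a bar for the mean with its SD, for scrambled control and IFNγR1KO cells. The ratios of Mitf to Mc1r and of Pax3 to Tbx2 lie below 0 in the 3 control libraries and above 0 in the 3 IFNγR1KO libraries.

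Paralogs can act in place of a family member. Of 21 paralogs of the 8 genes, 10 were at 0 in all 6 libraries (among them Pax7, Mc2r, Mc3r, Mc4r, Mc5r, Tbx3 and Tbx5), 6 passed the filter on low counts and 0 were called (median log2 fold change 0.0099). Tfe3, a factor of the Mitf family, was at 32.7, 37.5 and 36.9 CPM in control and 37.8, 44.2 and 49.2 CPM in IFNγR1KO cells (0.29 ± 0.15 (SE), adjusted p = 0.210). Tfeb, of the same family, had a log2 fold change of -0.047 (adjusted p = 0.888), Sox9 0.46 (adjusted p = 0.378) and Tbx4 0.067 (adjusted p = 0.828). Beside the absent Lef1 stood its relatives of the TCF family. Tcf7l1, mainly a repressor, was at 18.4, 21.1 and 24.6 CPM in control and 11.2, 14.1 and 18.3 CPM in IFNγR1KO cells (log2 fold change -0.56 ± 0.20 (SE), adjusted p = 0.0781). It was called with no filter on low counts (-0.59, adjusted p = 0.0229) and without IFNγR1KO 12 (-0.76, adjusted p = 0.00975). Tcf7l2 had -0.25 (adjusted p = 0.511). Of the paralogs below the filter, Tcf7 and Tfec are named here after their values were seen. Tcf7 had 11, 12 and 28 counts in control and 2, 2 and 1 in IFNγR1KO libraries, a ratio of IFNγR1KO to control of 0.135 (95% counting interval 0.0420 to 0.336). With no filter on low counts its log2 fold change was -2.84 with an adjusted p of 0.000248. Adjusted p-values of that edgeR fit are not on the scale of the main one. At like folds Kit had 9.5e-24 against 4.8e-05, and Pax3 0.202 against 0.0732. Tfec, of the Mitf family, had 7, 8 and 5 counts in control and 2, 1 and 0 in IFNγR1KO libraries, a ratio of 0.206 (0.0393 to 0.696), and was not called with no filter (-2.20, adjusted p = 0.119).

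Melanocortin, endothelin and KIT signaling, the route into Mc1r and Ednrb and its neighbour, was read in 29 genes. Of the 19 that passed the filter, 1 was called higher and 4 lower (26.3%, against 15.3% of all genes). These 19 had a median log2 fold change of -0.049. This and the other gene lists were chosen with earlier results of these data known. The share called in each therefore cannot be weighed against that of all genes. Kit, the receptor tyrosine kinase that melanocytes need to migrate and survive, was at 43.2, 41.2 and 50.4 CPM in control and 8.24, 13.0 and 13.4 CPM in IFNγR1KO cells. The groups lay far apart, and Kit fell by 1.96 ± 0.19 (SE) on the log2 scale (edgeR adjusted p = 4.8e-05). Pomc, which encodes the precursor of α-MSH, the ligand of Mc1r, had 15, 35 and 18 counts in control and 61, 80 and 69 in IFNγR1KO libraries. It rose by 2.08 ± 0.29 (SE) on the log2 scale from 2.28 to 9.74 CPM (adjusted p = 0.000597). Both calls held whichever 1 of the 6 libraries was left out.

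The other 3 calls in this list were smaller, and their adjusted p moved across 0.05 with the libraries kept while the folds stayed negative. Prkar2a and Prkacb, subunits of protein kinase A below the melanocortin receptor, fell by 0.61 and 0.54 on the log2 scale (adjusted p = 0.0409 and 0.0418), and each lost its call without scrambled control 2 or 3 or without IFNγR1KO 10 or 11 (adjusted p 0.0769 to 0.183). Without scrambled control 2 their folds were no smaller (-0.70 for Prkar2a and -0.61 for Prkacb), and calls over all genes went from 1054 to 535 higher and from 1039 to 552 lower. Prkar2a also lost it when all libraries were thinned to the smallest total (0.0715). Adcy3, an adenylyl cyclase named here after its value was seen, fell by 0.52 (adjusted p = 0.0486) and kept its call in 1 of the 6 fits that left out a library, the one without IFNγR1KO 12, with log2 fold changes of -0.58 both without scrambled control 1 and without scrambled control 2. It was lost with limma-voom, upper-quartile normalization and thinned counts (adjusted p 0.0508 to 0.0892). Of its exonic bases, 22.1% lie under Cenpo on the other strand. The ligands Edn1, Edn2 and Edn3 and the Mc1r antagonist Asip had no count in any library, and Kitl had at most 2.

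Wnt signaling around Lef1 was read in 27 genes, of which 18 passed the filter, 0 were called higher and 1 lower (5.56%). These 18 had a median log2 fold change of -0.18. The gene called was Axin2, a target and feedback inhibitor of the β-catenin pathway, which fell by 0.85 ± 0.23 (SE) on the log2 scale from 8.20 to 4.55 CPM (edgeR adjusted p = 0.0255). The call was lost without scrambled control 1 or 3 or without IFNγR1KO 10 or 11 (adjusted p 0.0639 to 0.102), and with thinned counts (0.0880). Ctnnb1, which encodes β-catenin and is named here after its value was seen, was at 1336 CPM in control and 989 CPM in IFNγR1KO cells (log2 fold change -0.43, adjusted p = 0.0743).

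Of 18 neural crest transcription factors that work beside Pax3, Sox10 and Tfap2a in the embryo, 12 passed the filter. Among these, 1 was called higher and 0 lower (8.33%, against 15.3% of all genes tested). Of the 12, 10 pointed higher (median log2 fold change 0.27), against 6794 of the 13642 genes tested. Id3, a dominant-negative helix-loop-helix protein, was at 40.0, 42.8 and 31.2 CPM in control and 127, 88.6 and 68.7 CPM in IFNγR1KO cells. It rose by 1.32 ± 0.21 (SE) on the log2 scale (adjusted p = 0.00141), and the call held whichever library was left out. Zeb1, below the filter and named after its values were seen, had 0, 1 and 2 counts in control and 7, 5 and 8 in IFNγR1KO libraries. The ratio was 9.17 (95% counting interval 2.72 to 48.2). When no filter was applied its edgeR adjusted p was 0.0104, which, as for Tcf7, is not on the scale of the main fit.

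Repressors and cofactors of Mitf were read in 14 genes. Of the 13 that passed the filter, 1 was called higher and 2 lower (23.1%), and their median log2 fold change was -0.0039. Atf4, a stress-induced factor known to repress Mitf, was at 518, 605 and 453 CPM in control and 1231, 1171 and 1050 CPM in IFNγR1KO cells, and rose by 1.13 ± 0.16 (SE) on the log2 scale (adjusted p = 0.000748). This call, too, held whichever library was left out. Pou3f2, also called Brn2, a factor reported to act on the Mitf promoter, had 33, 38 and 57 counts in control and 10, 13 and 13 in IFNγR1KO libraries. It fell by 1.36 ± 0.31 (SE) on the log2 scale (adjusted p = 0.011, and 0.0518 without IFNγR1KO 10). Bhlhe40, a helix-loop-helix repressor, fell by 0.61 ± 0.15 (SE) from 117 to 77.0 CPM (adjusted p = 0.0187), and lost its call without scrambled control 2 or without IFNγR1KO 10 or 11 (adjusted p 0.0754 to 0.131).

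Targets of Mitf were read in 24 genes, of which 20 passed the filter, 0 were called higher and 2 lower (10%). Their median log2 fold change was -0.10, and 13 of the 20 pointed lower, against 6848 of the 13642 genes tested. The 20 include the 7 pigment cell genes of the label check, each of which pointed lower, so the 2 results share genes. Over all genes tested, 7.73% were called higher and 7.62% lower, and with 1 library left out the calls among the targets ran from 0 to 3, so these counts lie near the background. Met, the hepatocyte growth factor receptor, fell by 0.67 ± 0.17 (SE) on the log2 scale from 396 to 249 CPM (adjusted p = 0.0202), and lost its call without scrambled control 3 or without IFNγR1KO 10 or 11 (adjusted p 0.0520 to 0.121). Oca2, a melanosomal membrane protein, fell by 0.47 ± 0.14 (SE) from 45.4 to 32.7 CPM (adjusted p = 0.0432) and kept its call in 1 of the 6 fits that left out a library, the one without IFNγR1KO 12. The call was also lost with upper-quartile normalization (0.0562) and thinned counts (0.0569). The pigment enzymes were not called: Tyr was at 671 and 604 CPM in control and IFNγR1KO cells (-0.15, adjusted p = 0.645), Tyrp1 at 7078 and 5930 CPM (-0.26, adjusted p = 0.359) and Dct at 14420 and 14090 CPM (-0.033, adjusted p = 0.940).

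**Figure D4:**
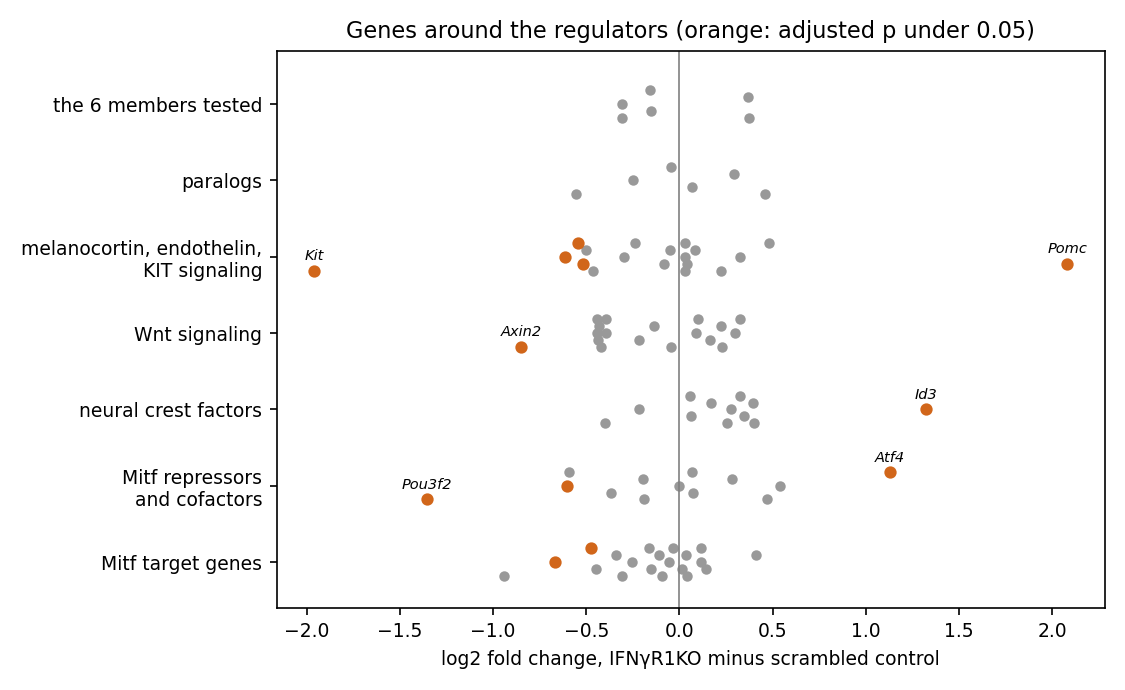
Log2 fold change of IFNγR1KO over scrambled control (log2 units) for each tested gene of the regulators and of 6 gene lists, with 1 point per gene and orange points for genes with an adjusted p under 0.05. The 6 tested regulators lie between -0.31 and 0.37 with no orange point, while Kit at -1.96 and Pomc at 2.08 lie far out in the melanocortin, endothelin and KIT list.

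Markers of other cell types were low apart from Mbp. Of 17 markers of fibroblasts, keratinocytes, leukocytes, endothelium and Schwann cells, 10 were at no more than 3 counts in every library (4 of these 10 at 0), 5 passed the filter, and 1 was called higher and 0 lower (20%, median log2 fold change -0.076). Their sum was 631 to 813 CPM in control and 751 to 804 CPM in IFNγR1KO cells, and Mbp made up most of it (707 ± 93.1 and 754 ± 27.5 CPM (SD, n = 3)). The gene called was Col1a1, a fibroblast collagen, at 1.33 ± 0.357 CPM in control and 5.20 ± 1.39 CPM in IFNγR1KO cells (log2 fold change 1.96 ± 0.32 (SE), adjusted p = 0.00175). Its part in the results above was not tested.

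The pattern of Mitf over the 6 libraries was most like that of Slc2a3, a glucose transporter (Pearson r = 0.994 of log2 CPM), Agrn, which encodes the matrix proteoglycan agrin (r = 0.993), and Gng7, a G protein subunit (r = 0.986). In all, 66 of 13642 tested genes had an r over 0.95 with Mitf. They are a description of these libraries, which share their scaling and their groups.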

How the data were processed

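Poly(A) RNA of 6 cultures (3 scrambled control, 3 IFNγR1KO) was sequenced in paired ends. Per the labels and methods, the authors aligned reads with STAR 2.7.5a to GRCm38, counted them per gene with HTSeq 0.11.2 and deposited these counts unnormalized. The strand setting and annotation release are not given in the sources used here. Reads counted to genes made up 46.0 to 47.0% of each table. The rows for unassigned reads (46.9 to 47.7% counted to no feature) were left out. With the strand setting not given, where those reads lay is not known. Symbols, positions and exonic lengths were taken from GENCODE M21, which held 55154 of the 55335 identifiers, and promoters from RefSeq. Counts were tested in edgeR 4.0.16 (R 4.3.3; filterByExpr with a minimum count of 10, TMM, glmQLFit, glmQLFTest) with Benjamini-Hochberg adjustment over 13642 genes, and a call is an adjusted p under 0.05. SE is the log2 fold change over the root of F, and 95% intervals use its t quantile. DESeq2 1.42.0, limma-voom (limma 3.58.1), other normalizations and filters, counts thinned to 6698956 and fits without each library were alternatives. On simulated counts edgeR recovered 79 of 100 changes of 2-fold and 100 of 100 of 4-fold, with 3 false calls. Smaller changes, such as those of the tested regulators, were not simulated. Named were the 8 genes, each tested paralog, up to 3 called genes per direction with the smallest adjusted p from each other list, Ifngr1 and the 3 genes most correlated with Mitf, beside genes marked as named after their values were seen and the pigment genes of the label check. The genes and lists were chosen with earlier results of these data known. No library repeated another (chi-square per degree of freedom 2.62 to 22.7 within groups).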

Additional observations from a re-analysis of the deposited data

How the results depend on the processing

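Of the 6 tested genes, 0 were called in the fits that each left out 1 library, and their log2 fold changes kept their sign: Mitf 0.26 to 0.45, Pax3 0.31 to 0.41, Sox10 -0.33 to -0.04, Tfap2a -0.20 to -0.12, Mc1r -0.39 to -0.26 and Tbx2 -0.39 to -0.23. Upper-quartile normalization, which moved the median of all genes to 0.035, called 1 of them higher, Pax3 (0.40, adjusted p = 0.0473). Melanocortin, endothelin and KIT genes called were 6 by DESeq2, 7 with no filter on low counts, 4 by limma-voom, 4 with upper-quartile normalization and 3 with thinned counts. Mitf repressors and cofactors called were 4 by DESeq2 and 4 with no filter. For Mitf targets it was 3 by DESeq2, 3 with no filter, 1 with upper-quartile normalization and 1 with thinned counts. Also called were 2 neural crest factors by DESeq2 and 2 with no filter. Paralogs called were 1 by DESeq2, 2 with no filter and 1 at 1 CPM in 3 libraries. Wnt genes called were 2 by DESeq2 and 4 with no filter. The remaining settings with all 6 libraries gave the list counts of the main fit. With 1 library left out, the calls ranged over 535 to 1372 genes higher and 457 to 1452 lower, 2 to 7 melanocortin, endothelin and KIT genes, 1 to 6 Mitf repressors and cofactors, 0 to 3 Mitf targets, 1 to 2 neural crest factors, 0 to 2 paralogs, 0 to 5 Wnt genes and 1 to 1 other cell markers. The sign turned for 2 uncalled paralogs: Tbx4 ranged from -0.077 (without IFNγR1KO 12) to 0.18 and Tfeb from -0.17 to 0.079 (without scrambled control 2). The cause of these changes was not tested, beyond the fewer samples or other genes that a setting holds by construction. No paired analysis was possible because the groups share no replicate number. With 3 cultures a group, Mitf, Pax3, Mc1r and Tbx2 had intervals that left out 0 but did not pass the adjustment over all genes.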
